A study of Mus musculus with 47 samples.

Results

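The transcripts described here are 8 genes of the route from cyclic AMP (cAMP) to the transcription factor CREB, chosen by symbol from the 45706 genes of the deposited count table: Gpr3, Creb1, Crem, Crtc1, Crtc2, Sik1, Sik2 and Sik3. All 8 were found, each on 1 line of the table, and all 8 passed the low-count filter in both tissues. The mice had diet-induced obesity (DIO in the labels), and strain, sex and age are not stated in the labels. RNA with a poly(A) tail was sequenced from prefrontal cortex (PFC) after saline, PICK1i or PSD-95i, with 8 libraries per group, and from hippocampus after saline (7 libraries), PICK1i (8) or PSD-95i (8). PICK1i and PSD-95i are the labels' names for inhibitors of PICK1 and PSD-95, PDZ-domain proteins that bind glutamate receptors at synapses. The protocol names mPD5 at 56 mg/kg and UCCB01-147 at 25 mg/kg, known as inhibitors of PICK1 and PSD-95, given daily for 5 days, with death 2 hours after the last injection. That protocol also speaks of whole hypothalamus and of 6 saline animals, which fits neither tissue nor either saline group, so its doses and times may not hold for these libraries. Nothing in the labels ties a library to an animal, and p-values therefore measure the spread between libraries, which may in part be technical. The samples list the treatments in the same order in both tissues, apart from 1 saline library fewer in hippocampus. Both tissues may thus come from the same mice, while the main tests between tissues treated all libraries as independent.

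Receptors coupled to the G protein Gs raise cAMP, which frees the catalytic subunits of protein kinase A to phosphorylate CREB on gene promoters. CRTC coactivators are held in the cytoplasm by phosphorylation from salt-inducible kinases (SIKs), and when SIKs are blocked or CRTCs are dephosphorylated they enter the nucleus and join CREB. Sik1 and the short repressors made from Crem (ICER) are themselves induced by CREB and act back on the pathway, and in neurons the same promoters also respond to calcium entry during activity.

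Total estimated counts were 5434477 to 12673677 per library in PFC and 5378175 to 13139410 in hippocampus. Levels are given as CPM, counts scaled to a common library total. Markers of cortical neurons summed to 668 to 1145 CPM in the 24 PFC libraries and to 129 to 290 CPM in 22 of the 23 hippocampal libraries, and markers of hippocampal neurons to 161 to 253 and 607 to 1149 CPM. The remaining library, labelled hippocampus, PICK1i replicate 7, held 205 CPM of hippocampal neuron markers and 1749 CPM of thalamic markers, against 99.5 to 237 CPM of thalamic markers in the other 7 libraries of its group. In PFC, PICK1i replicate 6 held 411 CPM of olfactory bulb markers, against 5.92 to 10.9 CPM in the other 7. The main calls and differences that move with either library are given with and without it.

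CREB binds the cAMP response element (CRE), and the members' promoters were searched for its half-site over 300 bases, the 250 before the start and the 50 from the start on. RefSeq's promoter table for build GRCm38.p6 held 5 of the 8 genes (Gpr3, Creb1, Crtc1, Sik2 and Sik3), and it held none for Sik1, Crem and Crtc2. Gpr3 is shown because it rose after PICK1i, and Sik3, the member with the most half-sites, because it did not pass any drug comparison. Printed are the 250 bases before the start, read 5′ to 3′ on the gene's strand, with capitals marking the CRE half-site, TGACG or, read on the other strand, CGTCA.
Gpr3 (chr4:133212537-133212786, minus strand): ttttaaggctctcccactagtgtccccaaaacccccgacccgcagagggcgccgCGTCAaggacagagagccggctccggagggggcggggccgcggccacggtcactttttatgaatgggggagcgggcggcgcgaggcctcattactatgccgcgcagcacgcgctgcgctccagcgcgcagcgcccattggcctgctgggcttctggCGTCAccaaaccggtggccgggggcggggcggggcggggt
Sik3 (chr9:46012570-46012819, plus strand): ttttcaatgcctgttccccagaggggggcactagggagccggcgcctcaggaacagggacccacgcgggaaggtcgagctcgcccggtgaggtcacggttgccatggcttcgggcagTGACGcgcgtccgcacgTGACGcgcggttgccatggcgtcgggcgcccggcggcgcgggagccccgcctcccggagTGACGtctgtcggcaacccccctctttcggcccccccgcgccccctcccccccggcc
In Gpr3 the half-sites began at -196 and -40, counted with the start base as 0, and in Sik3 at -133, -116 and -57. Sik2 held 2 half-sites, beginning at -1 and 12, which reach into or lie after the start and so are not printed, and Creb1 and Crtc1 held 0. Of 32851 promoters in the table, 20.8% held at least 1 half-site, 5.01% at least 2 and 1.03% at least 3. The full palindrome TGACGTCA, which contains both half-sites overlapping each other, was in 1.79% of all promoters and in 0 of these 5. These are letter matches within the window and say nothing about binding.

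Among the kinases, Sik1 was higher in PFC after PICK1i than after saline or PSD-95i. Sik1 (ENSMUSG00000024042, chromosome 17, 31844250 to 31855804, minus strand) encodes the SIK whose own transcription is driven by CREB. In PFC its saline libraries ran from 13.2 to 19.2 CPM with a median of 17.1, its PICK1i libraries from 22 to 47.1 CPM with a median of 27.5, and its PSD-95i libraries from 14.6 to 20.4 CPM with a median of 16.3. All 8 PICK1i libraries lay above every saline and every PSD-95i library, and the saline and PSD-95i ranges nearly coincided. The means were 16.9 ± 1.98 CPM (SD, n = 8) after saline and 28.8 ± 7.85 CPM (n = 8) after PICK1i, or 1.7-fold (log2 0.76, SE 0.12; edgeR's quasi-likelihood test, adjusted p = 0.000726). The highest value, 47.1 CPM, was that of replicate 6, the library with olfactory bulb markers, whose part in it was not tested. Without that library Sik1 averaged 26.2 ± 2.85 CPM (n = 7) and remained 1.54-fold above saline (edgeR, adjusted p = 0.000163). Transcript counts placed 100% of Sik1 on its single annotated coding transcript.

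Gpr3, at the top of the pathway, was also higher in PFC after PICK1i than in the other groups. Gpr3 (ENSMUSG00000049649, chromosome 4, 133209340 to 133212536, minus strand) encodes a receptor that signals through Gs without an added ligand. Its lowest, median and highest levels in PFC were 2.68, 4.2 and 5.47 CPM after saline, 5.75, 8.22 and 9.43 CPM after PICK1i, and 3.39, 4.26 and 5.73 CPM after PSD-95i. The PICK1i libraries again lay above all libraries of the other groups, though the lowest PICK1i and highest PSD-95i values nearly met. Saline libraries averaged 4.18 ± 0.847 CPM and PICK1i libraries 7.95 ± 1.38 CPM (SD, n = 8 in both), or 1.92-fold (log2 0.94, SE 0.14; edgeR, adjusted p = 0.000316). Replicate 6 held the lowest Gpr3 value of the group, and without it the rise was 2.0-fold (edgeR, adjusted p = 6.18e-05). The gene is low, with 28 to 45 counts per library after saline and 34 to 76 after PICK1i.

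Of 3 annotated transcripts of Gpr3, Gpr3-202 and Gpr3-201 carried nearly all counts, and Gpr3-203 was at 0 in every group but PFC PICK1i (mean 0.0145 CPM). Gpr3-202, which starts at 133211857 inside the gene, measured 3.32 ± 0.844 CPM after saline and 6.42 ± 1.25 CPM after PICK1i in PFC (SD, n = 8 each). Gpr3-201, which starts at 133212536, directly after the promoter printed above, measured 0.86 ± 0.295 and 1.51 ± 0.7 CPM. Gpr3-202 thus carried most of the counts in both groups. Exons of Gpr3 overlap those of Cd164l2 on the other strand. In PFC, Cd164l2 measured 1.95 ± 0.587 CPM after saline and 2.82 ± 0.287 CPM after PICK1i. That log2 difference was 0.54 (edgeR, unadjusted p = 0.00231, adjusted p = 0.415). Cd164l2 was lower after PSD-95i than after PICK1i by a log2 difference of -0.71 (edgeR, unadjusted p = 0.000178, adjusted p = 0.0501). Although the kit keeps strand, whether the counting used it is not stated, and how reads were divided between these genes was not tested.

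**Figure D1:**
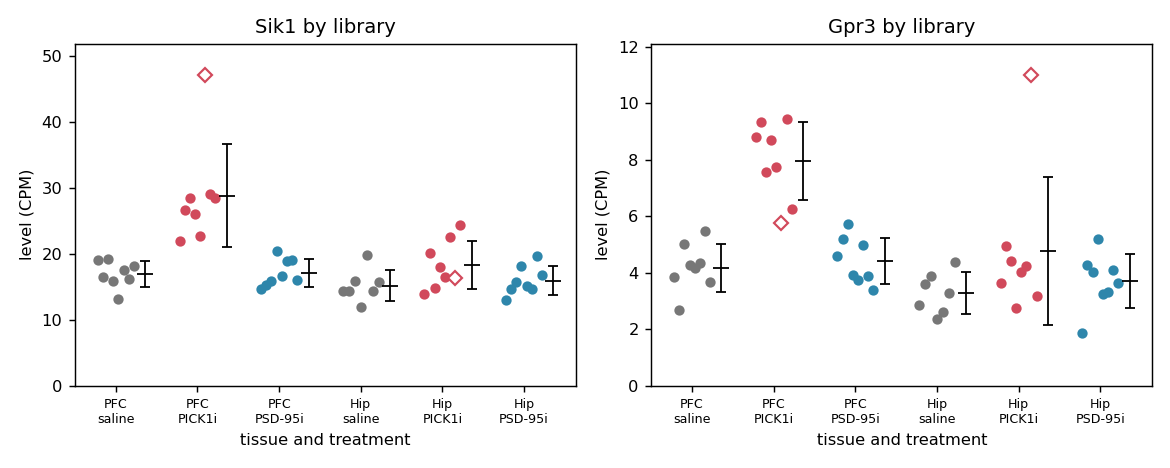
Levels of Sik1 and Gpr3 in CPM in each of the 47 libraries (PFC, prefrontal cortex; Hip, hippocampus), with the mean ± SD of each group in black; open diamonds are PFC PICK1i replicate 6 and the library labelled hippocampus, PICK1i replicate 7. The PFC PICK1i libraries (22 to 47.1 CPM for Sik1, 5.75 to 9.43 CPM for Gpr3) sit above the saline and PSD-95i libraries of PFC, and the groups of hippocampus overlap.

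These were 2 of 8 members called higher after PICK1i in PFC, where 27 of 14911 genes tested (0.181%) were called higher; 0 members were called lower, against 0.0201%, and 3 stood at an unadjusted p under 0.05, against 5.71%. Groups did not overlap for the same 2 members, against 0.141% of all genes tested that lay wholly above saline. The median log2 fold change of the 8 members was 0.11, against 0.01 for all genes. The members were chosen with earlier results of these data known, so these shares and medians are a description and no test of the set. In tissue RNA, more cells of an expressing type and more RNA per cell cannot be told apart.

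Sik2 and Sik3, the other SIK family kinases, did not pass the test. Sik2 (ENSMUSG00000037112, chromosome 9, 50892801 to 51009073, minus strand) measured 18.2 ± 2.98 CPM in the PFC saline group, 22.5 ± 3.75 with PICK1i and 18.7 ± 2.28 with PSD-95i (SD, n = 8 each). In 7 of 8 PICK1i libraries it was above the saline median, and 4 lay above every saline library. The log2 difference of 0.30 from saline had an unadjusted p of 0.0089 and an adjusted p of 0.645 (edgeR). Exons of Sik2 overlap those of Ppp2r1b on the other strand, which encodes a scaffold subunit of protein phosphatase 2A. Ppp2r1b measured 10.1 ± 1.46 CPM after saline and 13.2 ± 1.58 CPM after PICK1i, a log2 difference of 0.39 (edgeR, adjusted p = 0.137), and was lower after PSD-95i than after PICK1i by a log2 difference of -0.49 (adjusted p = 0.013); its part in the Sik2 counts was not tested. Sik3 (ENSMUSG00000034135, chromosome 9, 46012820 to 46224194, plus strand) measured 152 ± 15.9, 157 ± 24.6 and 150.4 ± 9.34 CPM in the same order, and its interval against saline was -0.12 to 0.20 for PICK1i on the log2 scale (95%).

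Creb1 and its coactivators did not pass the test in PFC with either drug. Creb1 (ENSMUSG00000025958, chromosome 1, 64532645 to 64604548, plus strand), the CREB gene itself, measured 49.1 ± 4.13, 49 ± 4.92 and 48.5 ± 4.83 CPM in the saline, PICK1i and PSD-95i groups (SD, n = 8 each). Its log2 difference from saline after PICK1i was -0.01, with a 95% interval of -0.15 to 0.13. Crtc1 (ENSMUSG00000003575, chromosome 8, 70382355 to 70439579, minus strand), a CRTC studied mostly in neurons, measured 109 ± 8.82, 112 ± 20.3 and 115 ± 15.6 CPM. Crtc2 (ENSMUSG00000027936, chromosome 3, 90254163 to 90264125, plus strand), best known as the CRTC of liver, measured 31.1 ± 4.53, 35.1 ± 5.08 and 31.4 ± 3.7 CPM, with a log2 difference of 0.19 after PICK1i (edgeR, adjusted p = 0.884). The 95% interval of the PICK1i difference of Crtc1 was -0.15 to 0.22 on the log2 scale.

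Crem (ENSMUSG00000063889, chromosome 18, 3266048 to 3337748, minus strand), which makes both activators and the ICER repressors, did not pass the test either. Its lowest, median and highest levels in PFC were 5.21, 6.9 and 9.85 CPM after saline, 5.84, 6.92 and 9.01 CPM after PICK1i, and 4.59, 5.56 and 8.49 CPM after PSD-95i. The saline range spanned the PICK1i range, and 1 of 8 PSD-95i libraries lay above the saline median. The log2 difference from saline was 0.01 for PICK1i (95% interval -0.25 to 0.27; edgeR, adjusted p = 0.999) and -0.27 for PSD-95i (adjusted p = 0.781, unadjusted p = 0.0461).

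**Figure D2:**
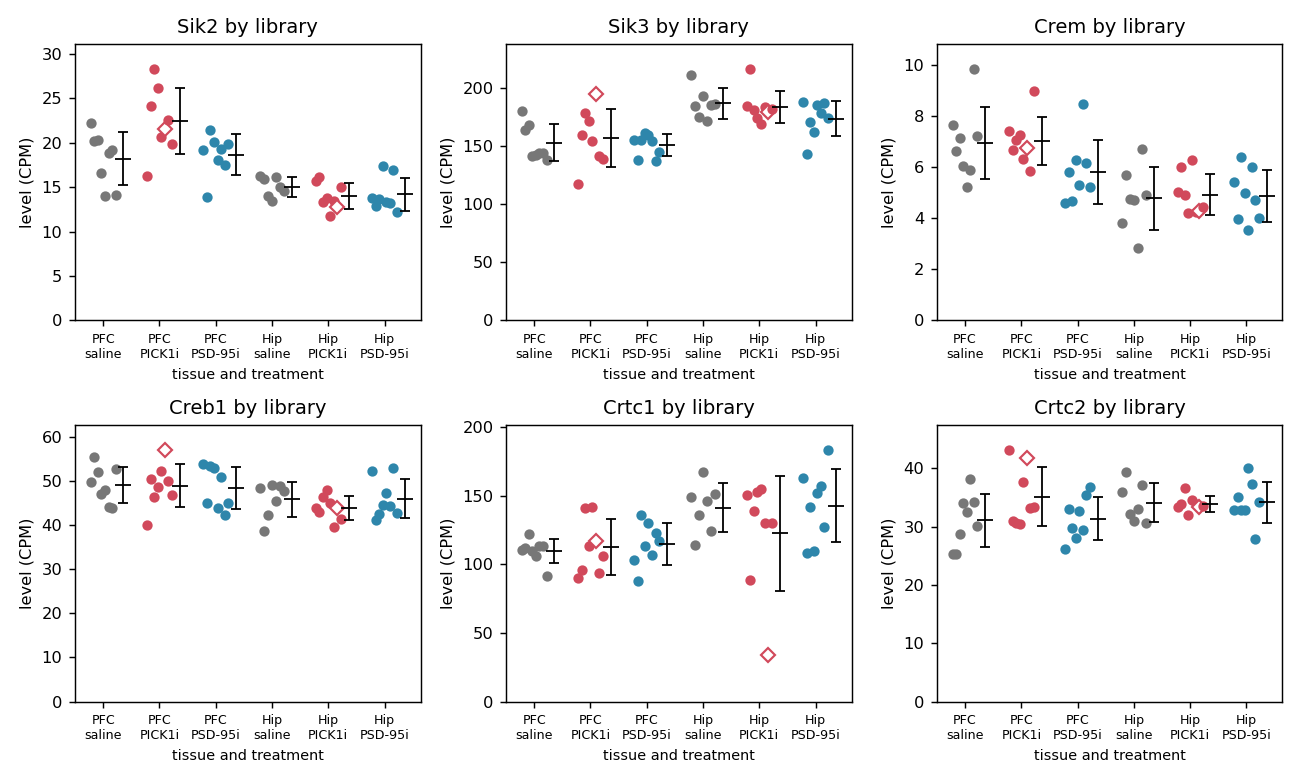
Levels in CPM of the 6 members other than Sik1 and Gpr3 in each library (Hip, hippocampus), with the mean ± SD of each group in black and the same 2 libraries as open diamonds. Treatment groups of a tissue overlap for every gene shown; Crtc1 was 33.7 CPM in the library labelled hippocampus, PICK1i replicate 7.

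The gene total of Crem mixes its forms, so its transcripts were split by start. ICER-type transcripts begin at an internal start, where 7 annotated transcripts begin, and the other 32 begin upstream. In PFC the internal start held 28.2 ± 4.69% of Crem counts in the saline group, 30.9 ± 5.41% with PICK1i and 29.6 ± 6.23% with PSD-95i (SD, n = 8 each). In hippocampus the shares were 24.3 ± 5.83% (n = 7), 24.8 ± 5.59% and 25.1 ± 4.0% (n = 8 each). The largest drug difference was 2.75 percentage points, between PICK1i and saline in PFC (exact permutation test, two-sided, p = 0.291, adjusted over 7 comparisons 0.901), and the adjusted p was 0.901 for all 7. The share rests on 4 to 28 internal-start counts per library, so changes of a few percentage points were not detectable at this depth.

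**Figure D3:**
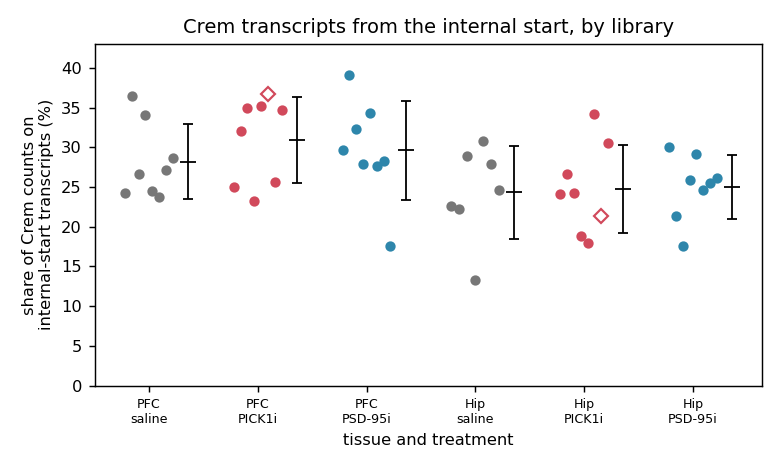
Share of Crem estimated counts on the 7 internal-start transcripts in each library, in percent, with the mean ± SD of each group in black (Hip, hippocampus). Group means lie between 24.3 and 30.9%, and every group overlaps the others.

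After PSD-95i, 0 of 8 members were called against saline in PFC (0.0% of 14911 genes; edgeR). Unadjusted p was under 0.05 for 1 member, Crem, and for 946 of all genes (6.34%), and neither DESeq2 nor limma voom called a member. Sik1 stood at a log2 difference of 0.01 (95% interval -0.24 to 0.26) and Gpr3 at 0.08 (-0.22 to 0.38). Both intervals end below the lower bounds of the PICK1i changes, 0.52 for Sik1 and 0.66 for Gpr3.

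The inhibitors were also compared directly. The doses named in the protocol differ, and may not hold for these libraries. Sik1 was lower after PSD-95i than after PICK1i in PFC by a log2 difference of -0.76 (SE 0.12; edgeR, adjusted p = 0.000701). For Gpr3 the log2 difference was -0.86 (SE 0.14; edgeR, adjusted p = 0.000735). These were 2 of 8 members called lower, against 0.262% of 14911 genes, and 0 were called higher, against 0.0738% (0.335% in either direction). An unadjusted p under 0.05 was reached by 4 members and by 9.6% of genes, and the 2 members' ranges did not overlap, as for 0.174% of genes. Without PICK1i replicate 6 the differences were -0.61 and -0.92 (edgeR, adjusted p = 0.000167 and 0.000177). Sik2 and Crem stood at -0.27 and -0.28 (edgeR, adjusted p = 0.398 and 0.501). The member median was -0.22, against -0.01 for all genes. This comparison shares its PICK1i libraries with the one against saline, and the same limit from the choice of members applies.

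**Figure D4:**
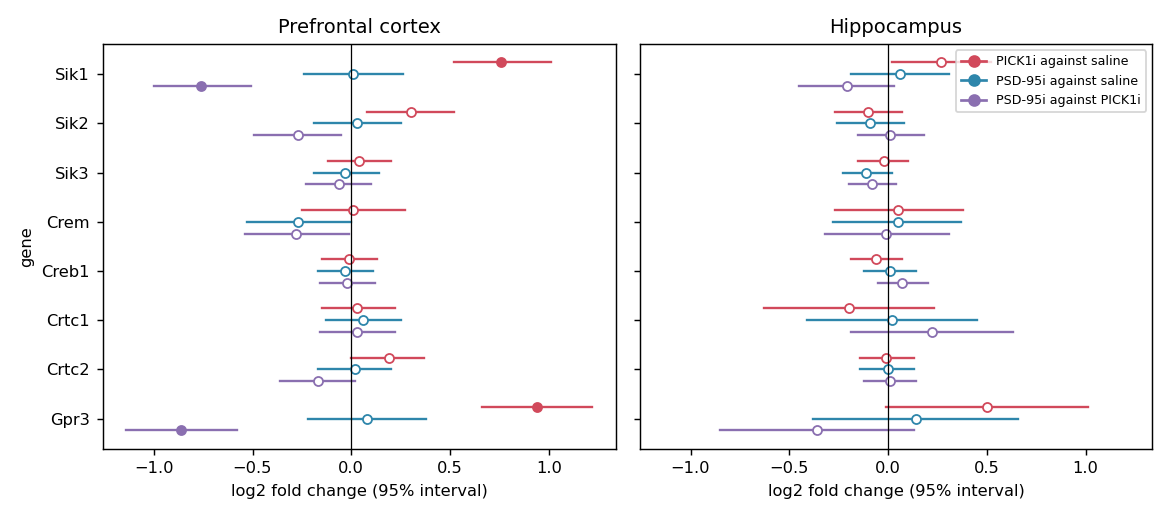
Log2 fold changes of the 8 members with 95% intervals (lines) in PFC (left) and hippocampus (right), for PICK1i against saline (red), PSD-95i against saline (blue) and PSD-95i against PICK1i (purple); filled points passed an adjusted p of 0.05. Only Sik1 and Gpr3 in PFC have filled points, for PICK1i against saline (0.76 and 0.94) and PSD-95i against PICK1i (-0.76 and -0.86).

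In hippocampus 0 of 8 members were called in any drug comparison, as for 0.0% of the 15051 genes tested (edgeR; unadjusted p under 0.05 for 580 genes or 3.85% with PICK1i, 231 or 1.53% with PSD-95i and 734 or 4.88% between inhibitors). At an unadjusted p under 0.05 stood 1, 0 and 0 members, and DESeq2 and limma voom called 0. Sik1 measured 15.2 ± 2.4 CPM after saline (SD, n = 7), 18.3 ± 3.7 after PICK1i and 15.9 ± 2.13 after PSD-95i (n = 8 each). After PICK1i, 7 of 8 libraries were above the saline median and 3 above every saline library, with a log2 difference of 0.27 (edgeR, unadjusted p = 0.035, adjusted p = 0.956). Gpr3 measured 3.28 ± 0.73, 4.77 ± 2.61 and 3.7 ± 0.968 CPM in the same order. The library labelled hippocampus, PICK1i replicate 7 held 11 CPM of Gpr3. Leaving it out brought the group mean to 3.88 ± 0.751 CPM (SD, n = 7) and the log2 difference from 0.50 to 0.22 (edgeR, adjusted p = 0.956 and 1.0). The same library held 33.7 CPM of Crtc1, whose log2 difference from saline was -0.20 with it and -0.06 without it. For PSD-95i against PICK1i, Gpr3 stood at -0.36 with that library and -0.09 without it, and Crtc1 at 0.22 and 0.08. The part of that library's thalamic markers in these values was not tested. Sik3, Creb1, Crtc2, Crem and Sik2 differed from saline by log2 values of -0.10 to 0.05 after PICK1i.

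Whether the PICK1i difference itself differed between tissues was tested in 1 model of all 6 groups, with libraries of the tissues not paired. No member was called, and 1 of 15658 genes (0.00639%) was; limma voom called 10 genes and DESeq2 2, with 0 members among them. An unadjusted p under 0.05 was reached by 2 members, Sik1 and Sik2, and by 3.86% of genes. For Sik1 the hippocampal minus the PFC log2 difference was -0.50 (standard error 0.17; edgeR, unadjusted p = 0.00626, adjusted p = 1.0), and -0.35 without PFC PICK1i replicate 6 (unadjusted p = 0.023, adjusted p = 1.0). For Sik2 the value was -0.41 (unadjusted p = 0.00551, adjusted p = 1.0). For Gpr3 it was -0.45, and -0.72 without the library labelled hippocampus, PICK1i replicate 7 (edgeR, unadjusted p = 0.116 and 0.00281, adjusted p = 1.0 for both). No member is therefore shown to respond differently in the tissues. For PSD-95i, 0 of 8 members and 0.0% of 15658 genes were called (edgeR; unadjusted p under 0.05 for 0 members and 428 genes, or 2.73%).

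Saline libraries gave the members' levels by tissue. On a scale per length (transcript counts over annotated length, scaled as TPM are), the order in PFC was Sik3 (67.7 ± 7.8), Crtc1 (61.9 ± 10.9), Crtc2 (32.3 ± 3.6), Creb1 (23.7 ± 3.62), Sik2 (13.4 ± 3.65), Crem (10.9 ± 2.48), Sik1 (7.78 ± 0.976) and Gpr3 (4.31 ± 0.744; SD, n = 8). Neighbours in this order overlapped between libraries except Crtc1 with Crtc2, Creb1 with Sik2 and Sik1 with Gpr3. The order was the same in hippocampal saline, from 84.3 for Sik3 to 3.41 for Gpr3. After PICK1i in PFC, Sik1 (13.2 ± 4.42) had a higher mean than Crem (11.7 ± 1.92), with overlapping ranges (8.2 to 23.2 and 8.84 to 14.3). In CPM the highest Sik1 value of that group, 47.1, was that of replicate 6. The order per length without that library was not computed. Annotated coding transcripts held 100% of Sik1 and Gpr3 counts in PFC saline, 97.4% of Creb1, 82.6% of Crem and 82.2% of Sik2. They held 46.8% of Crtc1, 40.9% of Sik3 and 23.2% of Crtc2. For these 3 genes most estimated counts, not scaled by length, were thus assigned to transcripts not annotated as coding.

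Between tissues, 3 of 8 members were called in saline, where 38.3% of 15658 genes were, 19.5% higher and 18.8% lower in hippocampus. An unadjusted p under 0.05 was reached by 4 members and 46.1% of genes. Sik3 was higher in hippocampus (log2 difference 0.29, edgeR, adjusted p = 0.00136), with 187 ± 13.2 CPM (SD, n = 7) against 152 ± 15.9 CPM (n = 8). Crem was lower (-0.55, adjusted p = 0.00213), with 4.78 ± 1.25 against 6.96 ± 1.42 CPM, and every hippocampal library was below the PFC median. Sik2 was lower by a log2 value of -0.27 (edgeR, adjusted p = 0.0272), a call lost without PFC saline replicates 1, 2 or 3 or hippocampal saline replicates 4 or 7 (adjusted p up to 0.0718) and with no low-count filter (0.0518). Crtc1 stood at 0.36 (edgeR, adjusted p = 0.0747; limma voom called it, adjusted p = 0.00286), Gpr3 at -0.32, Sik1 at -0.15, Crtc2 at 0.14 and Creb1 at -0.10. Hippocampal saline replicate 1 held 1789 CPM of striatal markers, against 56.9 to 86.2 CPM in the other 6, and PFC saline replicate 1 held 480.2 CPM, against 132 to 189 CPM in the other 7. The calls for Sik3 and Crem held without either library, and that for Sik2 was lost without the PFC one.

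Other genes of the pathway were read from 4 lists, chosen with earlier results of these data known. The counts of calls in these lists, set beside the shares over all genes, are therefore a description and no test of the lists. Of 29 tested CREB target genes of a list of 31, 7 rose in PFC after PICK1i and 0 fell, against 0.181% and 0.0201% of all genes tested, with a list median of 0.21 against 0.01 for all genes. These were Arc (log2 1.55), Fos (1.16), Nr4a1 (0.95), Junb (0.92), Dusp1 (0.74), Per1 (0.55) and Fosb (0.50), all activity-induced genes, with adjusted p from 2.17e-06 for Nr4a1 to 0.011 for Fosb (edgeR). Sik1 and Gpr3, at 0.76 and 0.94, lay within the span of these values. Fosb missed the threshold with replicate number as a block (adjusted p = 0.0504), and each of the 7 stayed called when any 1 PFC library was left out. The other 22 did not pass the test and ran from -1.20 for Nr4a2 (edgeR, adjusted p = 0.884) to 0.69 for Npas4 (0.457). Both are genes of activity-regulated transcription factors, named after their values were seen. Among PFC saline libraries Nr4a2 ran from 2.88 to 89 CPM. Summed markers of deep cortical layers had PFC medians of 168 CPM after saline and 120.1 CPM after PICK1i, with overlapping ranges. The part of tissue makeup in the Nr4a2 value was not tested.

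**Figure D5:**
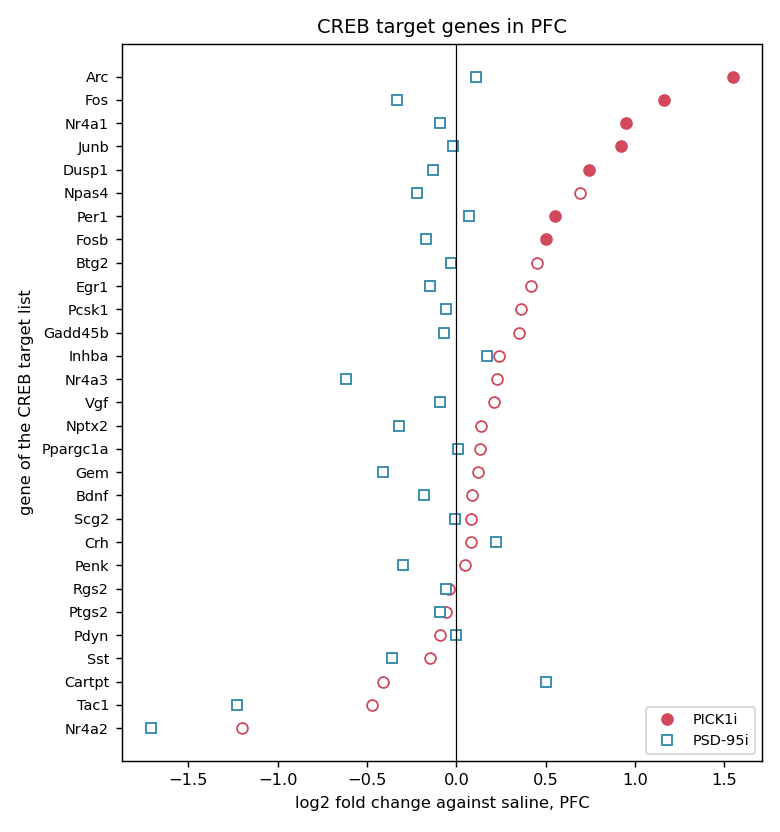
Log2 fold changes against saline in PFC of the 29 tested genes of the CREB target list, for PICK1i (red circles) and PSD-95i (blue squares), with filled symbols for an adjusted p under 0.05. The 7 filled circles run from 0.50 (Fosb) to 1.55 (Arc), and no square is filled.

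After PSD-95i, 0 of the 29 targets were called against saline (edgeR; list median -0.09), while 9 were lower after PSD-95i than after PICK1i and 0 higher, against 0.262% and 0.0738% of all genes (list median -0.46, all genes -0.01). They were the 7 above, from -1.49 for Fos to -0.48 for Per1, with Egr1 (-0.58, adjusted p = 0.00628) and Nptx2 (-0.46, adjusted p = 0.019), a secreted synaptic protein gene outside the naming rule, chosen after its value was seen. In hippocampus 0 of 29 were called in any drug comparison (edgeR). Per1, a clock gene with a CREB-responsive promoter, was the single gene called for a tissue difference of the PICK1i change (-0.54, edgeR, adjusted p = 0.0282; lost in 20 of 31 fits that left out 1 library).

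The other 3 lists, none of which holds Gpr3, had no call in a drug comparison. Of 19 genes of cAMP and kinase signalling, such as the protein kinase A subunits, 0 were called in any drug comparison (edgeR). In PFC after PICK1i, the smallest p of that list were those of Prkar2b, a regulatory subunit (-0.20, adjusted p = 0.789), and Pkig, an inhibitor of the kinase (0.14, adjusted p = 0.907). Of 14 genes of the CREB family, its cofactors and SIK substrates, 0 were called, with Crtc3, the remaining CRTC, at 0.19 (edgeR, adjusted p = 0.867). Of 13 tested Gs-coupled receptors and relatives of Gpr3, 0 were called in PFC, and 6 of the 19 listed had too few counts there. After PICK1i the smallest p of that list in PFC were those of Adora2a (-1.57, edgeR, adjusted p = 0.584) and Gpr6 (-1.50, adjusted p = 0.715). Both also count among the striatal markers, of which PFC saline replicate 1 held 480.2 CPM. The part of that library in these values was not tested. Between tissues in saline, 0 of 19 signalling genes were higher and 6 lower in hippocampus, 3 and 3 of 14 family genes, 4 and 9 of 29 targets, and 5 and 3 of 16 tested receptors, against 19.5% higher and 18.8% lower over all genes. Among them Crtc3 was higher in hippocampus (0.70, adjusted p = 7.83e-10), Mef2c, a SIK-regulated transcription factor's gene, was lower (-2.20, adjusted p = 1.75e-18), and Gpr12, the close relative of Gpr3, was higher (0.73, adjusted p = 1.04e-05; edgeR).

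Genes whose levels followed Sik1, Gpr3 and Crem from library to library, once each group's mean was taken out, were listed as a description over 47 libraries, which share tissue makeup and depth. For Sik1 the 5 closest were Sox1 (Pearson r 0.70), Sp8 (0.65), Dcx (0.65), Intu (0.64) and Gng4 (0.64). Without PFC PICK1i replicate 6 and the library labelled hippocampus, PICK1i replicate 7, they were Arhgap6 (0.69), Amotl1 (0.66), Rgs16 (0.64), Gpr153 (0.64) and Fzd2 (0.63), with 0 genes in both sets. For Gpr3 they were Habp4, Cadm4, Cend1, Zfp385a and Myl6b (0.74 to 0.76), of which 1, Cadm4 (0.58), was among the 5 closest in the 45 libraries. For Crem they were Ranbp10 (0.57), Il17ra (0.57), Mad2l1bp (0.54), Ccdc120 (0.50) and Slc37a4 (0.47), 4 of them in both sets.

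Correlations between members within groups, over the same libraries, are given as a description. Sik1 and Gpr3, the pair higher after PICK1i, had an r of -0.08 over 47 libraries and 0.12 over 45. Sik2 and Sik3 stood at 0.59 (0.66 over 45 libraries). Gpr3 and Crtc1 stood at -0.67, and at -0.42 without the same 2 libraries. The closest genes over 47 and over 45 libraries were Arrb1 for Sik2 (0.77 in both), Secisbp2l for Creb1 (0.73 and 0.79) and Pdlim7 for Crtc2 (0.72 and 0.74). For Sik3 the closest was Stim1 (0.79) over 47 libraries and Itpr1 (0.89) over 45.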

How the data were processed

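Reads were 52-base pairs from poly(A)-selected, strand-marking libraries, per the labels' protocols. The authors deposited estimated counts per gene and per transcript, which need not be whole; per the submitters' processing notes the tools were bcl2fastq 2.20.0, STAR and Salmon with build GRCm38, with no version of STAR or Salmon, annotation or strand setting given. Columns were matched to libraries by title. Estimated counts were rounded, scaled by TMM and tested over all genes with edgeR 4.0.16 (robust quasi-likelihood, R 4.3.3; filterByExpr, minimum count 10, minimum total 15), with Benjamini-Hochberg adjusted p under 0.05 as called. Each tissue's 3 groups shared a fit, and tissue comparisons used all 6 groups. Transcript lengths and starts came from the GRCm38 annotation. Likeness used log2 CPM with a prior count of 2. DESeq2 1.42.0 and limma 3.58.1 (voom) were alternatives, with RLE scaling, other filters, fits of only the groups compared, a replicate block, counts summed from transcripts, and each library left out. A PFC fit without 2 libraries that stood apart was added after seeing the data. Values without a single such library came from the fits that left out each library. Which of these to quote was decided after seeing the data. The members and gene lists were chosen with earlier results of these data known. Named list genes were the called ones (up to 8 by p), or the 2 with the smallest p; the 5 closest genes by r were named for Sik1, Gpr3 and Crem. The edgeR fit was tested on simulated counts with known changes. The closest gene to Crtc1 is not reported here.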

Additional observations from a re-analysis of the deposited data

Results flagged for a closer look

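Of 54 groups of values for the members, 4 held 1 library whose gap to its nearest neighbour was large for the group's range (Dixon's 95% criterion); chance gives about 1 in 20 groups. Sik1 was 47.1 CPM in PFC PICK1i replicate 6, which also held 411 CPM of olfactory bulb markers. Gpr3 was 11 CPM in the library labelled hippocampus, PICK1i replicate 7, which held 1749 CPM of thalamic markers. Sik3 was 216 CPM in hippocampus PICK1i replicate 2, which held 1196 CPM of striatal markers, against 50.8 to 77.2 CPM in the other libraries of its group. Crem was 8.49 CPM in PFC PSD-95i replicate 6, which held 49.7 CPM of olfactory bulb markers, against 5.33 to 11.3 CPM in the others. The part of these markers in the 4 values was not tested.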

How the results depend on the processing

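Sik1 and Gpr3 stayed called in PFC for PICK1i against saline under each of 8 alternatives, with log2 fold changes of 0.71 to 0.77 and 0.93 to 0.99. They also stayed called when 1 library was left out, at 0.62 to 0.82 and 0.86 to 1.0. The fit without both PICK1i replicate 6 and saline replicate 1, added after seeing the data, is not part of these ranges, and its values are not reported here. Among named genes and Crem shares, no result that passed the threshold changed sign under any alternative. Of those that did not pass it, 29 of 72 did under at least 1, such as Gpr3 for PSD-95i in hippocampus (0.14, and -0.07 with limma voom). In the same kinds of fits, the number of members called did not change for the drug comparisons. Counts over all genes moved more. For PICK1i against saline in PFC, 30 genes became 22 to 47 over the alternatives (47 with DESeq2) and 19 to 35 without 1 library (19 without saline replicate 2). For PSD-95i against saline, 0 became 2 with DESeq2 and 0 to 2 without 1 library (2 without saline replicate 4). Between the inhibitors, 50 became 35 to 98 over the alternatives (98 with DESeq2, 80 with a replicate block). Without 1 library the count was 36 to 83 (83 without PSD-95i replicate 6). For the tissue difference of the PICK1i change, 1 became 0 without a low-count filter, 2 with DESeq2, 10 with limma voom, 0 with a replicate block and 0 to 8 without 1 library (8 without hippocampus PICK1i replicate 2). The cause was not tested. For PFC PICK1i and saline, same-numbered libraries had an r of -0.168 to 0.334 (median 0.0545) between their deviations from the group mean. Between PFC and hippocampus, the same-numbered library was the closest for 3 of 7 saline, 2 of 8 PICK1i and 3 of 8 PSD-95i libraries. Whether such libraries share an animal is not given in the labels and was not tested. With the replicate block Sik1 stood at 0.73 and Gpr3 at 0.94 for PICK1i against saline in PFC (edgeR, adjusted p = 0.000731 and 0.00118). Low counts limit Gpr3 and the internal-start share of Crem.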
